A study of Saccharomyces cerevisiae with 12 samples.

Results

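Sulfur assimilation and methionine metabolism were followed here through 38 genes of Saccharomyces cerevisiae that carry sulfate into the cell, reduce it, build it into methionine and cysteine, turn methionine into S-adenosylmethionine, take up methionine and its derivatives, or regulate these steps. The genes were picked by name for these roles, with earlier results of these data known. Their array rows were found in a gene table of the S288C reference strain. All 38 were found, each with 1 probe, among 6214 genes on the arrays, and all 38 were among the 5474 genes with enough values to be tested.

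The study compared ITD00185, by the title of the series an agave strain, with T73, a wine strain. Both fermented synthetic agave must at 28 ºC. Total RNA was sampled from ITD00185 at 96 h, T73 at 96 h, ITD00185 at 48 h and T73 at 48 h, with 3 biological replicates in each of these 4 groups and 1 array per replicate. Each array set the strain's RNA in Cy5 against a Cy3 mix of samples of the same time, whose makeup the sources used here do not give. Neither genetic modification nor treatment is named in the labels.

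Yeast imports sulfate, activates it with ATP, reduces it through sulfite to sulfide, and joins sulfide to O-acetylhomoserine to make homocysteine. Methylation of homocysteine gives methionine, from which S-adenosylmethionine, the main methyl donor of the cell, is made, while transsulfuration links homocysteine with cysteine. The activator Met4, which binds DNA through Cbf1, Met28, Met31 and Met32, switches most of these genes on when sulfur amino acids are scarce, and the ubiquitin ligase that contains Met30 holds Met4 in check when they are plentiful. In wine-type fermentations the pathway is known for its part in the release of sulfide and sulfite.

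All values below are log2 ratios of strain over mix, or differences between them, so a difference of 1 is a 2-fold ratio. The direction of the deposited ratio is not stated. It is likely Cy5 over Cy3, and every sign below rests on that reading. Where no other setting is named, a result comes from a single fit to the deposited values of all 12 arrays at equal weight. This main fit gives the 4 groups 1 shared estimate of each gene's spread. Its standard errors and p-values therefore do not measure the spread at a single time. Between the strains at one time the mix falls out if the arrays of that time shared it. RNA came from whole cultures, so fewer cells expressing a gene and less of its RNA per cell cannot be told apart.

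The arrays were not equally alike. Replicate 2 of ITD00185 at 48 h stood apart, with correlations across genes of 0.45 and 0.54 with the other arrays of its group, against 0.83 to 0.87 with the 3 ITD00185 arrays at 96 h. Every other pair of replicates correlated at 0.75 to 0.94. The median SD of a gene over the replicates was 0.27 for ITD00185 at 96 h, where T73 had 0.24, and 0.50 for ITD00185 at 48 h, where T73 had 0.44. The main fit shares 1 estimate across these groups. It follows neither the wider spread at 48 h nor the narrower one at 96 h. Results that rest on the 48 h arrays of ITD00185 are therefore also given without replicate 2, called the divergent array below. Its part in them was not tested beyond leaving it out. Differences at 96 h do not use this array and stay the same without it. Only the shared estimate of spread changes for them, and with it their p-values. The SD of the ratios over all genes tested also differed between arrays. At 96 h it was 1.37, 1.61 and 1.59 in ITD00185 and 1.18, 1.21 and 1.08 in T73. At 48 h it was 1.03, 1.43 and 1.02 in ITD00185 and 1.85, 2.03 and 1.73 in T73. The deposited values keep these differences of spread, which go with the groups.

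At 96 h, 14 of the 38 genes differed between the strains at an adjusted p under 0.05 (limma, two-sided, adjusted over all genes tested), 4 higher and 10 lower in ITD00185. Over all genes 22.5% differed, 12% higher and 10.5% lower, so that the lower calls took a larger share of these genes, 26.3%, than of all genes. The median difference was -0.53 over the 38 genes and -0.01 over all genes tested, and 28 of the 38 lay below 0. Among 36 members with a value on all 6 arrays, the strains did not overlap for 26, 6 with ITD00185 higher and 20 with ITD00185 lower. Over all genes the arrays failed to overlap for 58.2%, 27.7% higher and 30.6% lower. With the 6 arrays of 96 h fitted alone 22 members passed, 6 higher and 16 lower, beside 22.9% of all genes higher and 22.2% lower. Among them SUL1, MET14, MET32, MET6, MUP1 and CYS3, lower in ITD00185, had missed the threshold on all 12 arrays (adjusted p now 0.0189 to 0.0477). So had SUL2 and MET7, higher in ITD00185 (adjusted p now 0.0163 for both).

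At 48 h, 16 of the 38 differed, 11 higher and 5 lower in ITD00185, against a background of 39.5% of all genes, 12.9% higher and 26.7% lower. Higher calls therefore made up 28.9% of the members and lower calls 13.2%, while lower calls were the more common ones over all genes. The median difference was 0.04 over the members and -0.32 over all genes. That shift of all genes shrank to -0.02 once each array was centred on its median, and the members then split into 13 higher and 2 lower, beside 19.5% of all genes higher and 19.7% lower. Scaling the arrays to one spread as well left 14 members higher and 1 lower, beside 10.4% of all genes higher and 12.1% lower. Among 35 members with all 6 values at 48 h, 12 did not overlap between the strains, 9 higher and 3 lower, against 40.9% of all genes, 14.7% higher and 26.2% lower. With the divergent array left out, 18 members differed, 14 higher and 4 lower, and 51.7% of all genes did, 19.7% higher and 32.0% lower. With the 6 arrays of 48 h fitted alone 4 members passed, SUL2, SSU1, MET2 and MMP1, all higher in ITD00185, beside 4.79% of all genes higher and 9.72% lower. The other member calls at 48 h were lost in that fit, with adjusted p from 0.0501 (MUP3) to 0.148 (MET13). Among them the adjusted p was 0.134 for MET17, 0.111 for MET6 and 0.0908 for SAM2.

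**Figure D1:**
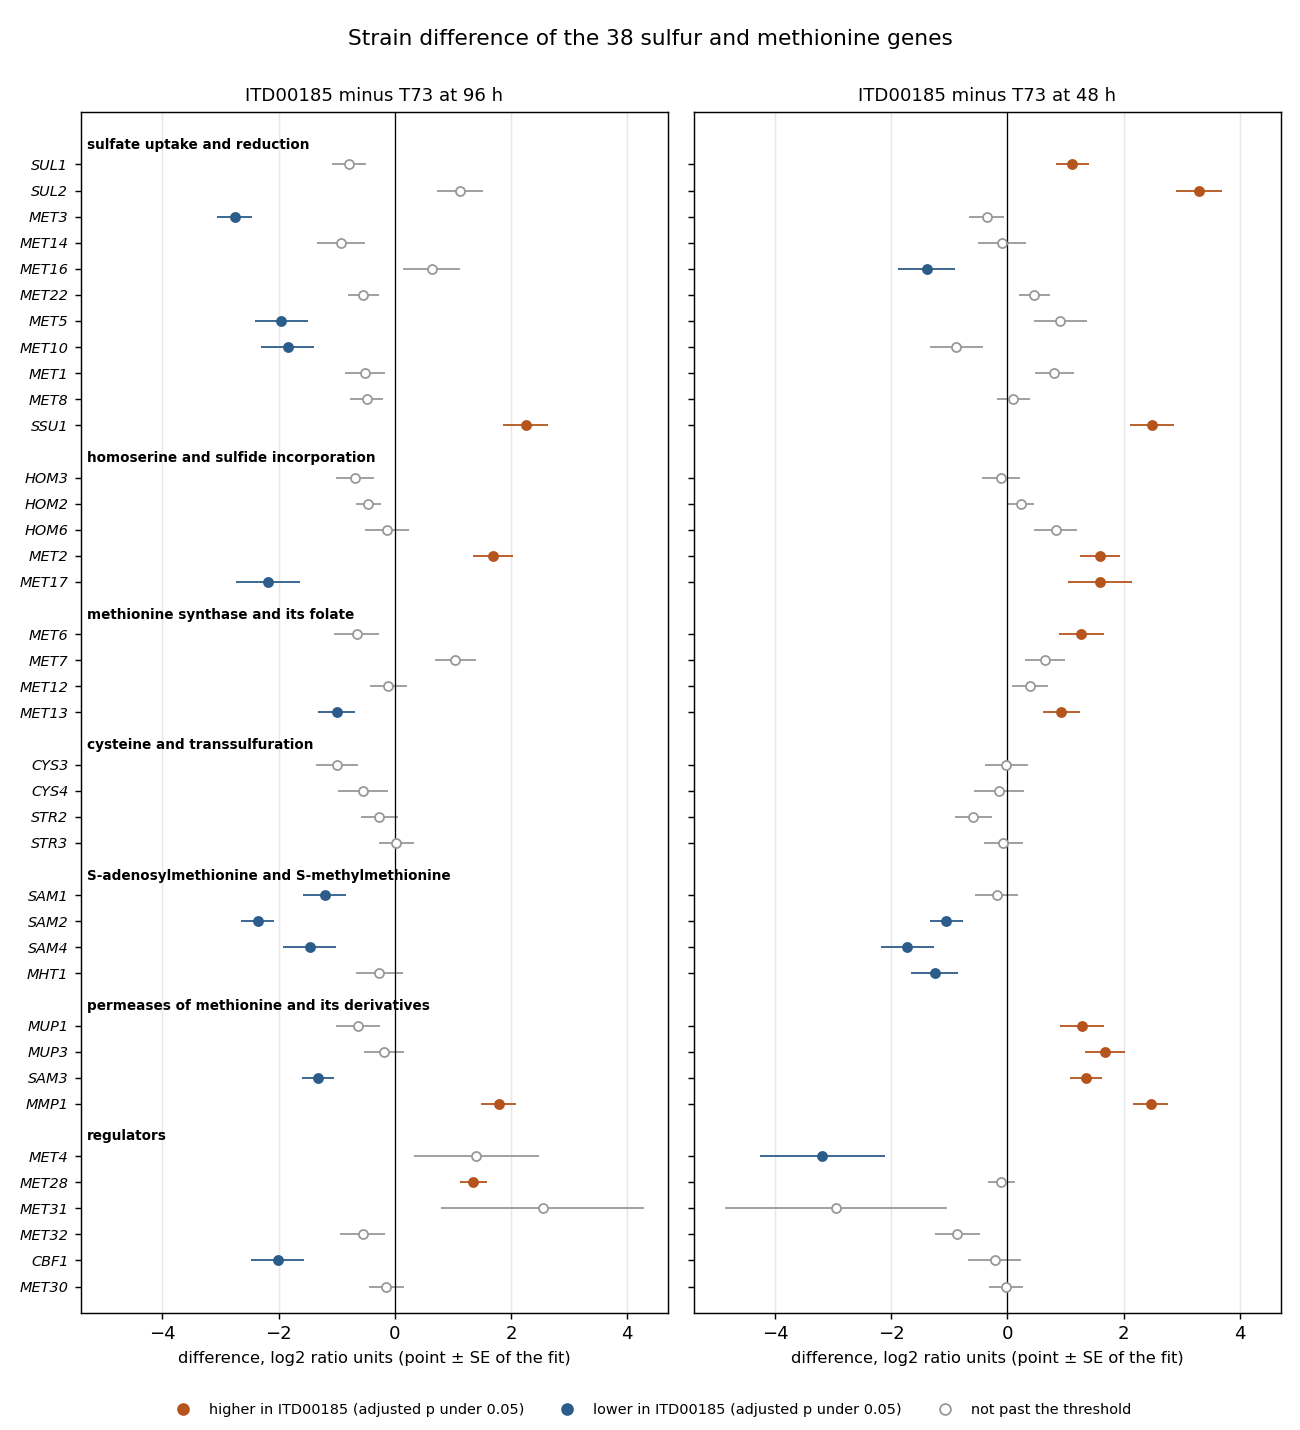
Difference between the strains (ITD00185 minus T73) for each of the 38 genes, at 96 h on the left and at 48 h on the right, in log2 ratio units. Points are differences of means of 3 arrays per group where no value is missing, bars the standard error of the fit, and filled points passed an adjusted p of 0.05: 14 genes at 96 h, mostly left of 0, and 16 at 48 h, mostly right of 0.

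The change of the strain difference between the times was tested itself, as the difference at 96 h minus the difference at 48 h. It passed for 16 of the 38 genes, falling for 13 and rising for 3, against a background of 38% of all genes, 13.6% of them falling and 24.4% rising. The median change was -0.76 over the members and 0.20 over all genes. Centring the arrays gave 17 calls, 15 falling and 2 rising, with a median of -0.13 over all genes, of which 21.6% fell and 20.1% rose. Scaling them to one spread gave 16 members that fell and 0 that rose, beside 10.4% of all genes falling and 13.4% rising. When the divergent array was left out, 22 members passed, 19 falling and 3 rising, as did 53.0% of all genes. All 16 genes named below for a change also passed without that array.

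**Figure D2:**
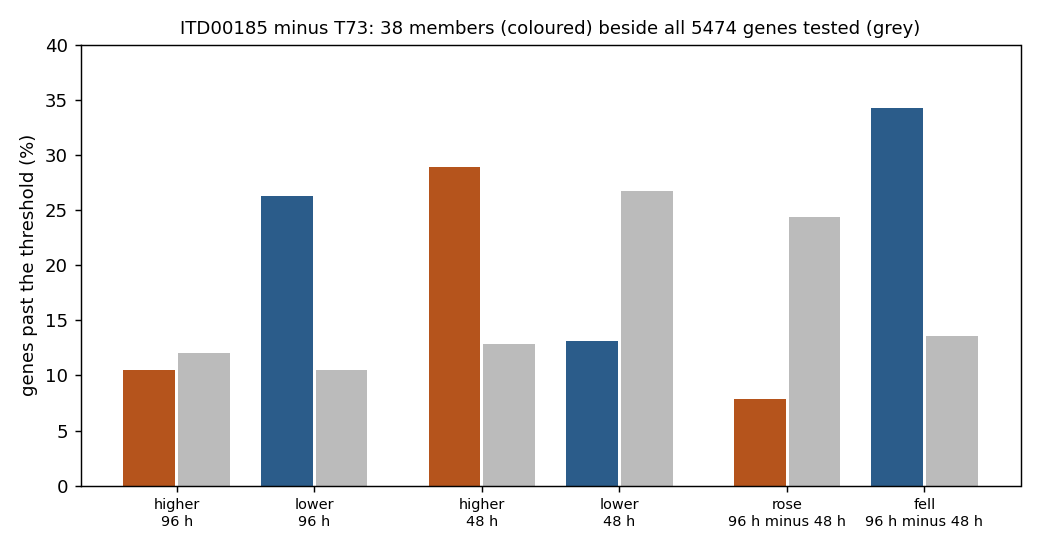
Share of genes past an adjusted p of 0.05 (vertical axis, percent) among the 38 genes, in colour, and among all 5474 genes tested, in grey, for calls at 96 h, at 48 h and for the change of the strain difference. The coloured bar is taller than the grey one for lower calls at 96 h (26.3% and 10.5%), higher calls at 48 h (28.9% and 12.9%) and falling differences (34.2% and 13.6%), and shorter for the opposite directions.

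Differences at both times were found for 8 genes. SSU1, MET2 and MMP1 were higher in ITD00185 at both, and SAM2 and SAM4 were lower at both. MET17, MET13 and SAM3 were lower at 96 h and higher at 48 h. A further 6 genes passed at 96 h alone and 8 at 48 h alone, which by itself does not show a change, and 15 passed in none of the 3 comparisons. Over all genes 22.5% passed at 96 h and 39.5% at 48 h. How many of all genes share each of these patterns was not counted, so the pattern counts have no background here.

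The sulfate permeases come first in the pathway. SUL1, a high-affinity sulfate permease, had ratios of -2.0, -1.89 and -2.26 in ITD00185 at 96 h, against -1.45, -1.48 and -0.84 in T73. Its ratios at 48 h were 0.41, -0.10 and 0.48 in ITD00185 and -1.21, -0.92 and -0.44 in T73. The strains did not overlap at either time, with ITD00185 below T73 at 96 h and above it at 48 h. The difference was -0.79 ± 0.29 (SE) at 96 h, which missed the threshold (adjusted p = 0.0702), and 1.12 ± 0.29 at 48 h (adjusted p = 0.0123). The change between them was -1.91 ± 0.41 (adjusted p = 0.00711), and without the divergent array -2.09 (adjusted p = 0.00186), with 1.30 at 48 h. The 96 h difference, unchanged in size, then passed too (adjusted p = 0.0421).

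SUL2, the other sulfate permease, had ratios of 0.04, 0.37 and -0.20 in ITD00185 at 96 h, against -1.44, -1.21 and -0.52 in T73. At 48 h the arrays gave 2.21, 0.61 and 1.41 in ITD00185 and -1.56, -2.17 and -1.91 in T73. Here ITD00185 was above T73 on every array of each time, and the gap was wider at 48 h. The difference was 1.13 ± 0.40 at 96 h (adjusted p = 0.0629) and 3.29 ± 0.40 at 48 h, 9.80-fold (adjusted p = 0.000279). Its change was -2.17 ± 0.56 (adjusted p = 0.0151), and -2.57 (adjusted p = 0.00173) without the divergent array, when the 48 h difference was 3.69 and SUL2 also passed at 96 h (adjusted p = 0.0220). Scaling the arrays to one spread brought the change to -2.24 with an adjusted p of 0.0516. The 2 permeases are related proteins, and how well their probes separate them was not tested.

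Of the enzymes that activate sulfate, MET3, ATP sulfurylase, had ratios of 0.43, 1.53 and 0.79 in ITD00185 at 96 h, against 3.76, 3.38 and 3.87 in T73. At 48 h its ratios were 2.07, 1.55 and 2.12 in ITD00185 and 2.13, 2.28 and 2.40 in T73. The gap was wide at 96 h, with no overlap, and narrow at 48 h. It came to -2.76 ± 0.30 at 96 h, 6.76-fold lower in ITD00185 (adjusted p = 0.000329), and to -0.36 ± 0.30 at 48 h (adjusted p = 0.368). The change was -2.40 ± 0.43 (adjusted p = 0.00366), and -2.58 (adjusted p = 0.000947) without the divergent array. With the arrays scaled to one spread MET3 changed by -4.73 (adjusted p = 0.00254), and its 48 h difference had the opposite sign, 1.08 (adjusted p = 0.0862). MET14, the APS kinase of the next step, had a difference of -0.92 ± 0.41 at 96 h (adjusted p = 0.125) and -0.09 ± 0.41 at 48 h, and MET22, the phosphatase that clears the nucleotide by-product, had -0.54 ± 0.27 and 0.46 ± 0.27. Neither passed a test in the main fit. With the arrays scaled to one spread MET14 was lower in ITD00185 at 96 h (-1.55, adjusted p = 0.0497) and MET22 higher at 48 h (1.20, adjusted p = 0.0288), and the change passed for MET14 (-2.59, adjusted p = 0.0303) and MET22 (-2.09, adjusted p = 0.0160). The 48 h difference of MET14 was then 1.04 (adjusted p = 0.162). Centring alone also took the change of MET22 past the threshold (-1.33, adjusted p = 0.0277). Once the divergent array was dropped, MET14 did at 96 h (adjusted p = 0.0470), and the change passed for MET14 (-1.27, adjusted p = 0.0438) and MET22 (-1.14, adjusted p = 0.0254).

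MET16, PAPS reductase, went the other way. Its ratios were 2.79, 3.44 and 3.56 in ITD00185 at 96 h, against 2.45, 2.86 and 2.58 in T73. At 48 h they were 1.19, 2.69 and 2.12 in ITD00185 and 3.77, 4.12 and 2.28 in T73. The strains overlapped at both times. The difference was 0.63 ± 0.49 at 96 h (adjusted p = 0.366) and -1.39 ± 0.49 at 48 h (adjusted p = 0.0433), a change of 2.02 ± 0.69 (adjusted p = 0.0410). Scaling all arrays to one spread turned the sign, to 0.27 at 48 h and -0.51 for the change. Both calls were lost without any 1 of 9 arrays, with adjusted p up to 0.162 at 48 h and 0.0947 for the change, and both held without ITD00185 48 h replicate 2, ITD00185 96 h replicate 1 and T73 48 h replicate 3. Without the divergent array the values were -1.73 at 48 h and 2.37 for the change.

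Sulfite is reduced to sulfide by an enzyme of 2 kinds of subunit, encoded by MET5 and MET10. MET5 had ratios of -1.82, -1.43 and -1.89 in ITD00185 at 96 h, against 0.15, 0.19 and 0.38 in T73. Its values at 48 h were 1.34, -0.92 and 0.17 in ITD00185 and -0.89, -0.93 and -0.30 in T73, with the divergent array as the lowest of ITD00185. The strains were apart at 96 h, by -1.95 ± 0.46 or 3.87-fold (adjusted p = 0.0134), and overlapped at 48 h, with 0.91 ± 0.46 (adjusted p = 0.132). The change was -2.86 ± 0.65 (adjusted p = 0.00898). With the divergent array left out, MET5 was higher in ITD00185 at 48 h, by 1.47 (adjusted p = 0.00629), and its change was -3.42 (adjusted p = 0.000466). Leaving out T73 96 h replicate 3 took the 96 h call to an adjusted p of 0.0523.

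MET10 had ratios of -1.72, -0.82 and -1.43 in ITD00185 at 96 h, against 0.21, 0.48 and 0.88 in T73. At 48 h the arrays read 1.49, -0.44 and 0.64 in ITD00185 and 1.01, 1.56 and 1.76 in T73. ITD00185 was below T73 on every array at 96 h, and the strains overlapped at 48 h. The difference was -1.85 ± 0.45 at 96 h, 3.60-fold (adjusted p = 0.0158), and -0.88 ± 0.45 at 48 h (adjusted p = 0.136). After scaling to one spread the 48 h difference was 0.02 (adjusted p = 0.985). Without ITD00185 96 h replicate 1, ITD00185 96 h replicate 3 or T73 96 h replicate 3 the adjusted p at 96 h was between 0.0527 and 0.0666. The change missed the threshold on all 12 arrays, at -0.97 ± 0.64 (adjusted p = 0.240), and passed without the divergent array, at -1.47 (adjusted p = 0.0326). Both subunit genes were thus lower in ITD00185 at 96 h by close amounts.

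Siroheme, the cofactor of sulfite reductase, is made with the products of MET1 and MET8. MET1 had ratios of 0.62, 1.33 and 0.93 in ITD00185 at 96 h, against 1.48, 1.43 and 1.51 in T73, and 1.85, 0.74 and 1.91 in ITD00185 at 48 h, against 0.50, 0.50 and 1.09 in T73. ITD00185 was below T73 at 96 h without overlap, and overlapped it at 48 h through the divergent array. Neither difference passed, with -0.51 ± 0.34 at 96 h and 0.80 ± 0.34 at 48 h (adjusted p = 0.0774), but the 48 h one did with the arrays centred (1.10, adjusted p = 0.0294) or scaled to one spread (1.74, adjusted p = 0.0242). The change of -1.32 ± 0.48 passed narrowly (adjusted p = 0.0495) and was lost without any 1 of 10 arrays (adjusted p up to 0.111), the exceptions being ITD00185 48 h replicate 2 and T73 48 h replicate 3. When the divergent array was left out, the 48 h difference was 1.18 (adjusted p = 0.00516) and the change -1.69 (adjusted p = 0.00369), while scaled arrays gave a change of -2.69 (adjusted p = 0.0197). MET8 had differences of -0.48 ± 0.29 at 96 h and 0.10 ± 0.29 at 48 h, neither past the threshold.

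SSU1, the plasma membrane pump that exports sulfite and is known from the sulfite tolerance of wine yeasts, was higher in ITD00185 throughout. Its ratios were 2.28, 2.35 and 2.09 in ITD00185 at 96 h, against -0.20, -0.10 and 0.28 in T73, and 3.33, 1.92 and 3.02 in ITD00185 at 48 h, against 0.35, -0.32 and 0.77 in T73. No T73 array reached the lowest ITD00185 array at either time. The difference was 2.25 ± 0.38 at 96 h, 4.76-fold (adjusted p = 0.00314), and 2.49 ± 0.38 at 48 h, 5.62-fold (adjusted p = 0.000958). Its change of -0.24 ± 0.54 missed the threshold (adjusted p = 0.737). Once the divergent array was dropped, the 48 h difference was 2.91 (adjusted p = 0.000131). Both calls held under every alternative that was run.

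The carbon skeleton for methionine comes from aspartate through HOM3, aspartokinase, HOM2, aspartate semialdehyde dehydrogenase, and HOM6, homoserine dehydrogenase. None of them passed in the main fit. Their differences were -0.69 ± 0.33, -0.45 ± 0.22 and -0.13 ± 0.38 at 96 h, and -0.11 ± 0.33, 0.23 ± 0.22 and 0.83 ± 0.38 at 48 h, in that order of genes. HOM6 had ratios of 1.96, 0.55 and 1.76 in ITD00185 at 48 h, against 0.21, 0.35 and 1.22 in T73. Without the divergent array, the low one of the ITD00185 values, HOM6 was higher in ITD00185 at 48 h by 1.26 (adjusted p = 0.00587). The change then passed for HOM6 (-1.39, adjusted p = 0.0149) and HOM2 (-0.79, adjusted p = 0.0421). Centring the arrays also gave calls to HOM6 at 48 h (1.12, adjusted p = 0.0432) and to the change of HOM2 (-1.02, adjusted p = 0.0270). Scaling them to one spread gave calls at 48 h to HOM6 (1.72, adjusted p = 0.0352) and HOM2 (0.76, adjusted p = 0.0482), and to the changes of HOM2 (-1.49, adjusted p = 0.0177) and HOM3 (-1.49, adjusted p = 0.0459). The 48 h difference of HOM3 was then 0.53 (adjusted p = 0.275).

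MET2, homoserine O-acetyltransferase, which prepares homoserine for sulfide, had ratios of 1.62, 1.84 and 1.22 in ITD00185 at 96 h, against -0.30, -0.31 and 0.23 in T73. At 48 h they were 1.29, 0.98 and 1.22 in ITD00185 and -0.51, 0.32 and -1.08 in T73. The groups did not overlap at either time, and the gap was of like size at both, 1.69 ± 0.35 at 96 h (3.22-fold, adjusted p = 0.00716) and 1.59 ± 0.35 at 48 h (3.01-fold, adjusted p = 0.00569). The change was 0.10 ± 0.49 (adjusted p = 0.885). With the divergent array left out, the 48 h difference was 1.68, and both calls held under every alternative.

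MET17, the O-acetylhomoserine sulfhydrylase that fixes sulfide into homocysteine, had the most negative change of the 38 genes. Its ratios were -0.59, 0.18 and -0.44 in ITD00185 at 96 h, against 1.70, 1.82 and 2.16 in T73. At 48 h they were 2.40, -0.03 and 1.97 in ITD00185 and 0.13, -0.78 and 0.21 in T73. The strains were apart at 96 h with ITD00185 lower, and at 48 h ITD00185 was higher on replicates 1 and 3, while the divergent array lay within the range of T73. The difference was -2.18 ± 0.55 at 96 h, 4.53-fold lower (adjusted p = 0.0176), and 1.60 ± 0.55 at 48 h, 3.02-fold higher (adjusted p = 0.0380).

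The change of MET17 was -3.78 ± 0.77 (adjusted p = 0.00604), and it held under every alternative. When the divergent array was left out, it was -4.52 (adjusted p = 0.000198), and the 48 h difference was 2.34 (adjusted p = 0.000582). The single-time calls of MET17 were less firm. At 96 h the adjusted p was between 0.0505 and 0.0675 without replicate 1 or 3 of ITD00185 at 96 h or replicate 1 or 3 of T73 at 96 h. At 48 h the call was lost without any 1 of 8 arrays (adjusted p up to 0.147), and held without ITD00185 48 h replicate 2, T73 48 h replicate 3, and ITD00185 96 h replicates 1 and 2.

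**Figure D3:**
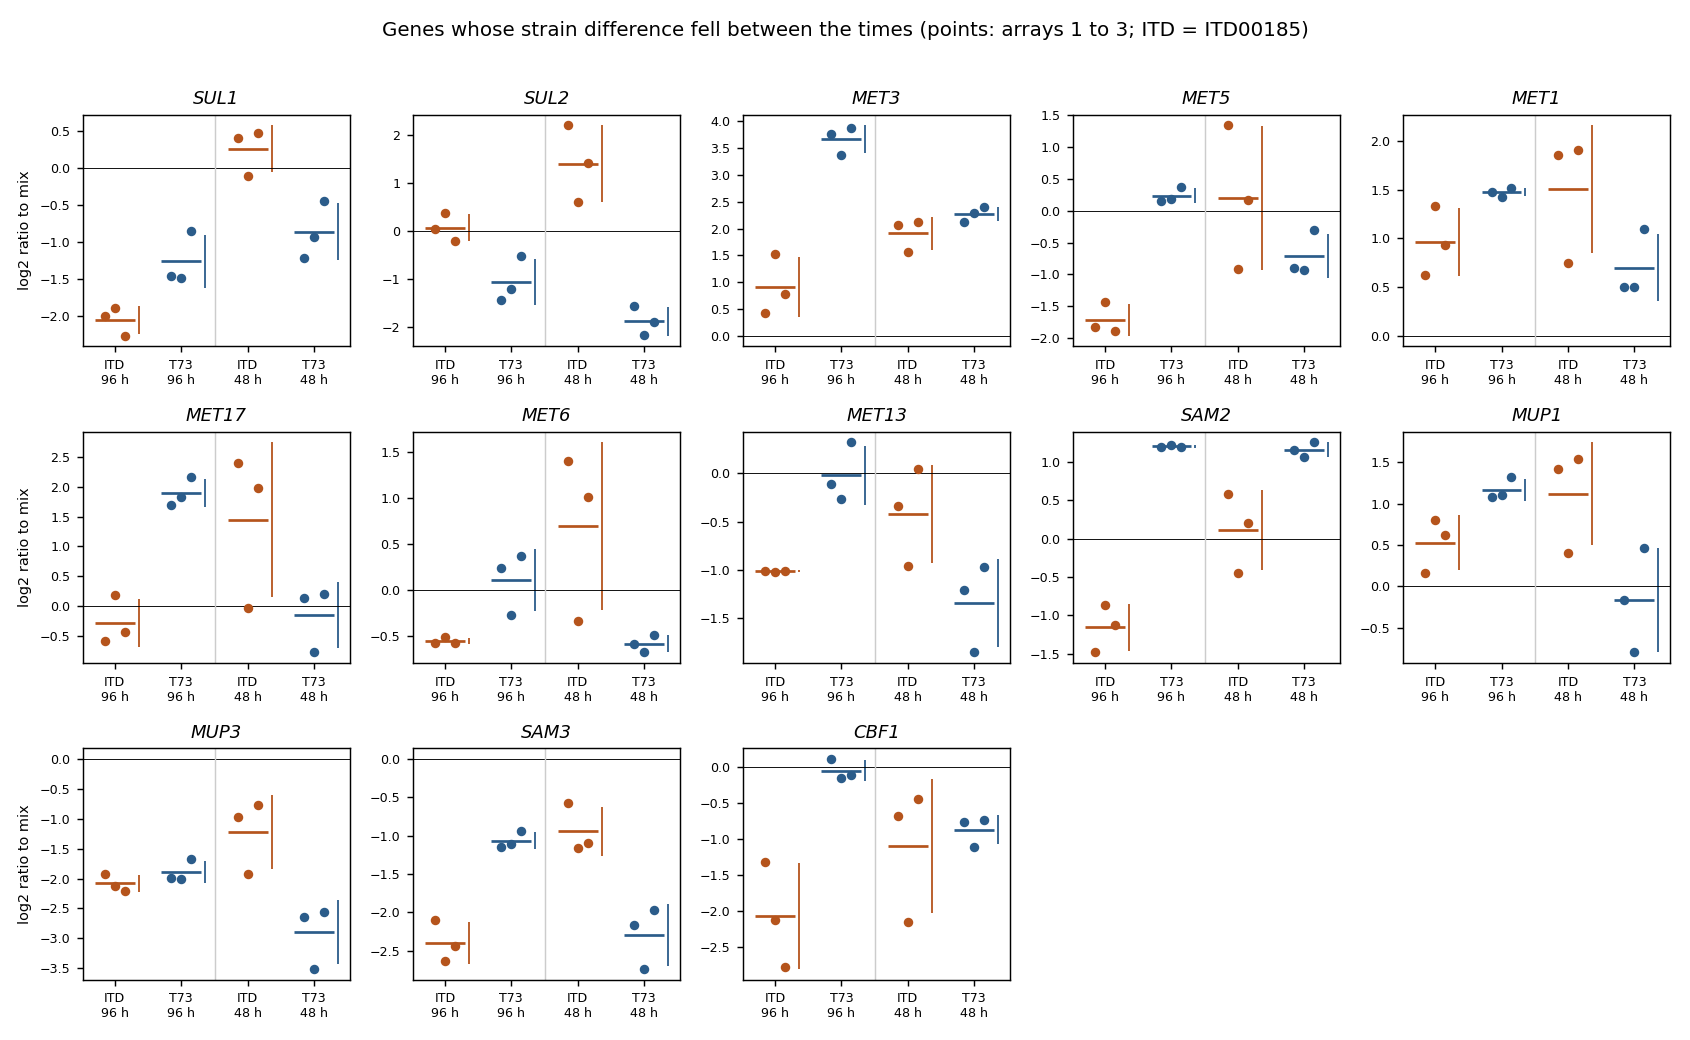
Log2 ratio to the mix (vertical axis) of the 13 genes whose strain difference fell between the times. Points are arrays 1 to 3 of each group, horizontal lines group means and vertical lines ± SD, with ITD00185 in orange left of T73 in blue, 96 h left of 48 h. In MET17 and SAM3 the ITD00185 mean lies below T73 at 96 h (-0.29 and 1.89 for MET17, -2.39 and -1.07 for SAM3) and above it at 48 h (1.45 and -0.15 for MET17, -0.94 and -2.29 for SAM3).

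MET6, the cobalamin-independent methionine synthase, had ratios of -0.57, -0.51 and -0.57 in ITD00185 at 96 h, against 0.24, -0.27 and 0.36 in T73. At 48 h its ratios were 1.40, -0.34 and 1.01 in ITD00185 and -0.58, -0.67 and -0.48 in T73. Neither time had overlap, with ITD00185 below at 96 h and above at 48 h. The difference was -0.66 ± 0.38 at 96 h (adjusted p = 0.229) and 1.27 ± 0.38 at 48 h (adjusted p = 0.0235), and the change was -1.93 ± 0.54 (adjusted p = 0.0201). Once the divergent array was dropped, these were -0.66 (adjusted p = 0.0431), 1.78 (adjusted p = 0.000354) and -2.44 (adjusted p = 0.000432). The 48 h call was lost without replicate 1 or 3 of ITD00185 or replicate 1 or 2 of T73 at 48 h (adjusted p up to 0.0931), and the change without T73 96 h replicate 3 (adjusted p = 0.0526).

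MET13, the main methylenetetrahydrofolate reductase, which supplies the methyl group for that step, had ratios of -1.02, -1.03 and -1.01 in ITD00185 at 96 h, against -0.11, -0.27 and 0.32 in T73. At 48 h they were -0.34, -0.96 and 0.04 in ITD00185 and -1.21, -1.86 and -0.97 in T73. The strains changed places without overlapping at either time. The difference was -1.0 ± 0.32 at 96 h (adjusted p = 0.0441) and 0.93 ± 0.32 at 48 h (adjusted p = 0.0378), both near the threshold. With the arrays centred the adjusted p at 96 h was 0.0502, and with them scaled to one spread that at 48 h was 0.112. The change was -1.93 ± 0.45 (adjusted p = 0.00991), or -2.20 (adjusted p = 0.00159) without the divergent array, with 1.20 at 48 h. This change held under every alternative.

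Each single-time call of MET13 was lost without any 1 of 8 arrays. At 96 h, where the adjusted p reached 0.156, it held without ITD00185 48 h replicates 2 and 3 and T73 48 h replicates 2 and 3. At 48 h, where it reached 0.140, it held without ITD00185 48 h replicate 2, T73 48 h replicate 3 and T73 96 h replicates 2 and 3. MET12, the second reductase gene, had differences of -0.11 ± 0.32 at 96 h and 0.39 ± 0.32 at 48 h, and MET7, folylpolyglutamate synthetase, 1.04 ± 0.35 (adjusted p = 0.0540) and 0.65 ± 0.35. Neither passed in the main fit. MET7 did at 96 h without the divergent array (adjusted p = 0.0457) and with the 6 arrays of 96 h alone (adjusted p = 0.0163), and at 48 h with the arrays scaled to one spread (1.38, adjusted p = 0.0101).

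The 4 transsulfuration genes passed no test in the main fit. CYS3, cystathionine gamma-lyase, had ratios of 1.33, 2.22 and 1.44 in ITD00185 at 96 h, against 2.64, 2.63 and 2.68 in T73. The strains did not overlap there, with a difference of -0.99 ± 0.36 (adjusted p = 0.0714), and at 48 h it was -0.02 ± 0.36. Without the divergent array CYS3 passed at 96 h (adjusted p = 0.0248) and in the change (-1.34, adjusted p = 0.0251). It also passed with the arrays scaled to one spread, at 96 h (-1.74, adjusted p = 0.0399), in the change (-3.11, adjusted p = 0.0202) and within T73 over time (2.05, adjusted p = 0.0330). CYS4, cystathionine beta-synthase, STR2, cystathionine gamma-synthase, and STR3, cystathionine beta-lyase, had differences of -0.55, -0.27 and 0.03 at 96 h and -0.14, -0.58 and -0.07 at 48 h, with STR3 lacking a value on ITD00185 48 h replicate 2.

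S-adenosylmethionine synthetase is encoded by SAM1 and SAM2. SAM2 had ratios of -1.48, -0.86 and -1.12 in ITD00185 at 96 h, against 1.20, 1.23 and 1.19 in T73, and 0.58, -0.45 and 0.20 in ITD00185 at 48 h, against 1.16, 1.06 and 1.26 in T73. All ITD00185 arrays were below all T73 arrays at both times, by -2.36 ± 0.28 at 96 h (5.14-fold, adjusted p = 0.000531) and by -1.05 ± 0.28 at 48 h (2.07-fold, adjusted p = 0.0140). The 96 h call held under every alternative. At 48 h the difference was -0.75 (adjusted p = 0.0602) with the arrays centred, -0.42 (adjusted p = 0.358) with them scaled as well, and -0.77 (adjusted p = 0.0213) without the divergent array.

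The change of SAM2 was -1.31 ± 0.40 (adjusted p = 0.0262), and -1.59 (adjusted p = 0.00264) without the divergent array and -2.13 (adjusted p = 0.0138) with scaled arrays. It was lost without any 1 of 7 arrays, replicates 1 and 3 of each strain at 96 h, replicates 1 and 3 of ITD00185 at 48 h and replicate 2 of T73 at 48 h, with adjusted p between 0.0510 and 0.0592. SAM1 had ratios of 0.14, 0.59 and 0.09 in ITD00185 at 96 h, against 2.00, 1.17 and 1.28 in T73, and 1.35, 0.10 and 0.07 in ITD00185 at 48 h, against 0.96, 0.55 and 0.57 in T73. It was lower in ITD00185 at 96 h without overlap, by -1.21 ± 0.37 (2.31-fold, adjusted p = 0.0393), and this call was lost without any 1 of the 6 arrays of that time (adjusted p 0.0554 to 0.153). The strains overlapped at 48 h, with -0.19 ± 0.37 (adjusted p = 0.709). The change of SAM1 was -1.02 ± 0.52 (adjusted p = 0.138), and scaling the arrays to one spread made it -1.98 (adjusted p = 0.0487). The 2 synthetases are close paralogs, so their probes may share signal, which was not tested.

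Homocysteine can also be methylated with S-adenosylmethionine, by Sam4, or with S-methylmethionine, by Mht1. SAM4 had ratios of -0.81, -1.21 and -1.08 in ITD00185 at 96 h, against 0.71, 0.26 and 0.32 in T73, and -1.02, -1.25 and -1.51 in ITD00185 at 48 h, against 1.44, 0.73 and -0.79 in T73. It was lower in ITD00185 on every array of both times, by -1.46 ± 0.46 at 96 h (2.75-fold, adjusted p = 0.0416) and -1.72 ± 0.46 at 48 h (3.29-fold, adjusted p = 0.0135). At 48 h 1 of the T73 arrays, replicate 3, lay just above the highest ITD00185 array. The 96 h call was lost without any 1 of the 6 arrays of 96 h or ITD00185 48 h replicate 3 (adjusted p 0.0521 to 0.134), and without the divergent array the 48 h difference was -1.73 (adjusted p = 0.0191).

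MHT1 lacked a value on T73 96 h replicate 1 and T73 48 h replicate 3, so its T73 groups rest on 2 arrays each. Its ratios were -0.74, -1.16 and -0.86 in ITD00185 at 96 h, against -0.55 and -0.76 in T73, and -0.07, -0.80 and 0.43 in ITD00185 at 48 h, against 0.70 and 1.51 in T73. The strains overlapped at 96 h, with -0.27 ± 0.40 (adjusted p = 0.659), and ITD00185 was lower at 48 h, by -1.25 ± 0.40 (2.38-fold, adjusted p = 0.0352). This call was lost without the divergent array, at -0.93 (adjusted p = 0.0548), and without ITD00185 48 h replicate 1, T73 48 h replicate 2, ITD00185 96 h replicate 3, T73 96 h replicate 2 or T73 96 h replicate 3 (adjusted p up to 0.209). It was lost with the arrays centred as well (adjusted p = 0.0978).

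**Figure D4:**
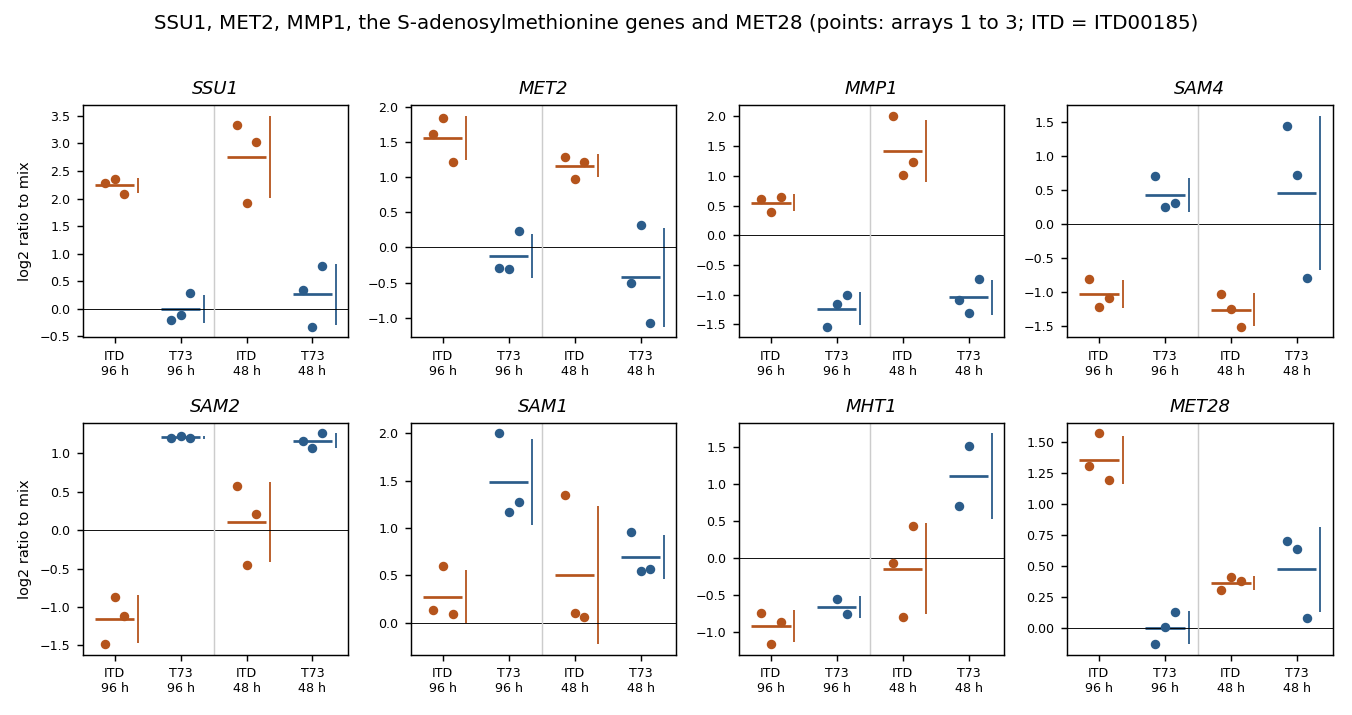
Log2 ratio to the mix (vertical axis) of SSU1, MET2, MMP1, SAM4, SAM2, SAM1, MHT1 and MET28. Points are arrays, horizontal lines group means and vertical lines ± SD, with ITD00185 in orange left of T73 in blue and 96 h left of 48 h. SSU1, MET2 and MMP1 are higher in ITD00185 at both times (SSU1 means 2.24 and -0.01 at 96 h, 2.76 and 0.27 at 48 h), SAM4 and SAM2 lower at both, and MET28 is higher at 96 h (1.35 and 0.00).

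The permeases of methionine and its derivatives were all 4 higher in ITD00185 at 48 h, where 12.9% of all genes were, while at 96 h 1 was higher and 1 lower, beside 12% and 10.5% of all genes. With the 6 arrays of 48 h fitted alone only MMP1 kept its 48 h call. MUP3 (adjusted p = 0.0501), SAM3 (adjusted p = 0.0504) and MUP1 (adjusted p = 0.103) then missed the threshold. MMP1, which takes up S-methylmethionine, was the steady one. Its ratios were 0.62, 0.39 and 0.64 in ITD00185 at 96 h, against -1.54, -1.16 and -1.0 in T73, and 2.01, 1.02 and 1.23 in ITD00185 at 48 h, against -1.08, -1.32 and -0.73 in T73. The groups were far apart at both times, by 1.79 ± 0.30 at 96 h (3.45-fold, adjusted p = 0.00288) and 2.46 ± 0.30 at 48 h (5.52-fold, adjusted p = 0.000279). The change of -0.68 ± 0.42 missed the threshold (adjusted p = 0.215). With the divergent array left out, the 48 h difference was 2.67, and both calls held under every alternative.

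SAM3, the S-adenosylmethionine permease, had ratios of -2.10, -2.64 and -2.44 in ITD00185 at 96 h, against -1.15, -1.11 and -0.94 in T73. At 48 h they were -0.58, -1.16 and -1.09 in ITD00185 and -2.16, -2.74 and -1.97 in T73. The strains changed places with no overlap at either time. The difference was -1.33 ± 0.28 at 96 h (2.51-fold lower, adjusted p = 0.00744) and 1.35 ± 0.28 at 48 h (2.54-fold higher, adjusted p = 0.00418). Its change was -2.67 ± 0.39 (adjusted p = 0.00180), and -2.78 (adjusted p = 0.000507) without the divergent array, and held under every alternative, as did the 96 h call. After scaling to one spread its 48 h difference was 0.67 (adjusted p = 0.0705) and its change -1.59. SAM3 and MMP1 are related permeases.

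MUP1, the high-affinity methionine permease, had ratios of 0.16, 0.80 and 0.62 in ITD00185 at 96 h, against 1.08, 1.10 and 1.32 in T73, and 1.42, 0.40 and 1.53 in ITD00185 at 48 h, against -0.17, -0.80 and 0.47 in T73. The strains did not overlap at 96 h and overlapped by the divergent array at 48 h. The difference was -0.64 ± 0.38 at 96 h (adjusted p = 0.234) and 1.28 ± 0.38 at 48 h (2.43-fold, adjusted p = 0.0210), and the change was -1.92 ± 0.53 (adjusted p = 0.0192). When the divergent array was left out, the 48 h difference was 1.64 (adjusted p = 0.00339) and the change -2.28. The 48 h call was lost without replicate 1 or 3 of ITD00185 or replicate 2 of T73 at 48 h (adjusted p 0.0746 to 0.0805), while the change held under every alternative.

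MUP3, the low-affinity methionine permease, had ratios of -1.92, -2.12 and -2.21 in ITD00185 at 96 h, against -1.99, -2.0 and -1.68 in T73, and -0.97, -1.92 and -0.77 in ITD00185 at 48 h, against -2.63, -3.52 and -2.55 in T73. The strains overlapped at 96 h, with -0.19 ± 0.35 (adjusted p = 0.709), and were apart at 48 h, with 1.68 ± 0.35 (3.21-fold, adjusted p = 0.00426). The change was -1.87 ± 0.49 (adjusted p = 0.0154), and without the divergent array -2.22 (adjusted p = 0.00159), with 2.03 at 48 h. Scaling the arrays to one spread brought the change to -0.50 (adjusted p = 0.328) and the 48 h difference to 0.83 (adjusted p = 0.0450).

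Of the 6 regulators, 1 was higher and 1 lower in ITD00185 at 96 h, beside 12% and 10.5% of all genes, and 1 was lower at 48 h, beside 26.7%. MET4, the transcriptional activator of the pathway, varied more between replicates than any other called member. Its ratios were 4.47, 2.06 and 3.30 in ITD00185 at 96 h, against 1.95, 2.49 and 1.18 in T73, and -1.27, 2.64 and -1.11 in ITD00185 at 48 h, against 3.46, 4.78 and 1.57 in T73. At 48 h replicates 1 and 3 of ITD00185 were below all T73 arrays, and the divergent array lay among them. The difference was 1.40 ± 1.08 at 96 h (adjusted p = 0.360) and -3.19 ± 1.08 at 48 h (adjusted p = 0.0361), and the change was 4.59 ± 1.52 (adjusted p = 0.0361).

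Once the divergent array was dropped, MET4 differed by -4.46 at 48 h (adjusted p = 0.00232), and its change was 5.87 (adjusted p = 0.00257). The 48 h call was lost without any 1 of 5 arrays, ITD00185 48 h replicate 1 or 3, T73 48 h replicate 1 or 2, or T73 96 h replicate 1 (adjusted p up to 0.134). The change was lost without any 1 of 8, replicates 1 and 3 of ITD00185 and of T73 at 96 h, replicates 1 and 3 of ITD00185 at 48 h and replicates 1 and 2 of T73 at 48 h (adjusted p up to 0.0872). After scaling to one spread they were -2.37 (adjusted p = 0.132) and 3.17 (adjusted p = 0.142).

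MET28, a cofactor that stabilises the Met4 complex on DNA, had ratios of 1.30, 1.57 and 1.19 in ITD00185 at 96 h, against -0.13, 0.01 and 0.13 in T73, and 0.30, 0.41 and 0.38 in ITD00185 at 48 h, against 0.70, 0.64 and 0.08 in T73. The strains were apart at 96 h and overlapped at 48 h. MET28 was 1.35 ± 0.23 higher in ITD00185 at 96 h (2.55-fold, adjusted p = 0.00333), and this held under every alternative. At 48 h the difference was -0.11 ± 0.23 (adjusted p = 0.736). Its change of 1.46 ± 0.33 (adjusted p = 0.00895) was 1.48 without the divergent array and 0.83 (adjusted p = 0.0674) with the arrays scaled to one spread.

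CBF1, the DNA-binding partner of Met4 that also acts at centromeres, had ratios of -1.31, -2.12 and -2.77 in ITD00185 at 96 h, against 0.11, -0.16 and -0.12 in T73, and -0.68, -2.15 and -0.44 in ITD00185 at 48 h, against -0.77, -1.10 and -0.73 in T73. It was lower in ITD00185 at 96 h without overlap, by -2.02 ± 0.46 (4.04-fold, adjusted p = 0.0112), under every alternative run. The T73 values at 48 h fell inside the range of ITD00185, with -0.22 ± 0.46 (adjusted p = 0.721). The change of -1.79 ± 0.65 (adjusted p = 0.0475) was lost without any 1 of 10 arrays (adjusted p up to 0.112), the exceptions being ITD00185 48 h replicate 2 and ITD00185 96 h replicate 1, and was -2.33 (adjusted p = 0.00338) without the divergent array. It was also lost with the arrays scaled to one spread (-1.41, adjusted p = 0.0958).

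The remaining regulators passed no test in the main fit. MET30, the F-box protein that brings Met4 to the ubiquitin ligase, had close ratios everywhere, with means of -1.51 in ITD00185 and -1.36 in T73 at 96 h, and -1.53 in ITD00185 and -1.5 in T73 at 48 h. Its differences were -0.15 ± 0.30 and -0.02 ± 0.30. MET32, a zinc-finger cofactor of Met4, had -0.55 ± 0.39 at 96 h and -0.86 ± 0.39 at 48 h (adjusted p = 0.0961). At 96 h MET32 passed with the 6 arrays of that time alone (adjusted p = 0.0308) and after scaling to one spread (-1.13, adjusted p = 0.0418). Its 48 h difference after scaling was 0.24 (adjusted p = 0.639). MET31, its paralog, lacked values on ITD00185 96 h replicate 3, ITD00185 48 h replicate 2 and T73 48 h replicate 2, and its arrays spread so widely, 0.81 and 4.78 in ITD00185 at 96 h for example, that the standard errors were 1.74 at 96 h and 1.91 at 48 h. Over all 15 genes that passed none of the 3 comparisons, differences ran from -0.99 to 2.54 at 96 h and from -2.96 to 0.83 at 48 h, with MET31 at the wide end of both.

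Change over time within a strain compares ratios to the mixes of different times, so it is a change of the ratio and not of expression. In ITD00185 the arrays of the times did not overlap for 16 of 36 members, 2 rising and 14 falling, against 33.4% of all genes, 13.1% rising and 20.3% falling. On testing, 6 members passed for 96 h minus 48 h, 1 rising and 5 falling, against 6.52% of all genes, 3.82% rising and 2.7% falling. SUL1 fell by 2.31 ± 0.29 (adjusted p = 0.00580), MET5 by 1.91 ± 0.46 (adjusted p = 0.0397), MET10 by 1.89 ± 0.45 (adjusted p = 0.0394), SAM3 by 1.45 ± 0.28 (adjusted p = 0.0224) and SAM2 by 1.27 ± 0.28 (adjusted p = 0.0322), while MET28 rose by 0.99 ± 0.23 (adjusted p = 0.0383). Of these 6, SUL1 alone kept its call without each array in turn. The calls of SAM2, MET10 and MET28 were lost without any 1 of 8 arrays, replicates 1 and 3 of ITD00185 at 48 h and all 6 of 96 h, and that of MET5 without these or T73 48 h replicate 1, while that of SAM3 was lost without replicate 1 or 3 of ITD00185 at 48 h or replicate 2 or 3 of ITD00185 at 96 h, with adjusted p up to 0.136. Without the divergent array 21 members passed, 18 falling and 3 rising, beside 38.4% of all genes, 18% rising and 20.5% falling. Newly past the threshold were, among others, MET17 (-2.47, adjusted p = 0.00161), MET6 (-1.75, adjusted p = 0.00150) and SUL2 (-1.74, adjusted p = 0.00543). So were CYS4 (-1.61, adjusted p = 0.0205) and, rising, MET4 (4.47, adjusted p = 0.00459) and MET16 (1.61, adjusted p = 0.0314).

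In T73 the arrays of the times did not overlap for 18 of 36 members, 16 rising and 2 falling, against 53.8% of all genes, 20.2% rising and 33.6% falling. On testing, 7 members passed for 96 h minus 48 h, 6 rising and 1 falling, against 32.4% of all genes, 8.42% rising and 23.9% falling. MET17 rose by 2.04 ± 0.55 (adjusted p = 0.0178), MET3 by 1.40 ± 0.30 (adjusted p = 0.00807), MUP1 by 1.33 ± 0.38 (adjusted p = 0.0220), MET13 by 1.33 ± 0.32 (adjusted p = 0.0115), SAM3 by 1.22 ± 0.28 (adjusted p = 0.00900) and MUP3 by 1.01 ± 0.35 (adjusted p = 0.0444), while MHT1 fell by 1.76 ± 0.44 (adjusted p = 0.0172). Centring the arrays gave 14 calls, 13 of them rising, with 16.0% of all genes rising. With the arrays scaled to one spread MET3 rose by 3.02 (adjusted p = 0.00556), and MUP3 (0.11), SAM3 (0.66) and MHT1 (-1.25) missed the threshold. The calls of MET3 and SAM3 held without each array in turn. Those of MET13 (T73 96 h replicate 3), MET17 (T73 48 h replicate 2, T73 96 h replicate 3), MHT1 (T73 48 h replicate 2, T73 96 h replicates 2 and 3), MUP1 (T73 48 h replicate 2, any T73 array at 96 h) and MUP3 (T73 48 h replicates 1 and 2, any array at 96 h) were lost without any 1 of the arrays named, with adjusted p up to 0.163. The median change was -0.53 in ITD00185 and 0.15 in T73 over the 38 genes, beside -0.12 in ITD00185 and -0.30 in T73 over all genes.

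Some members lie side by side in the gene table of the reference strain. MHT1 and MMP1, the enzyme and the permease for S-methylmethionine, are neighbours, as are SAM4 and SAM3, the enzyme and the permease for S-adenosylmethionine. At 96 h MMP1 was higher in ITD00185 (1.79) while MHT1 did not pass (-0.27), and SAM3 (-1.33) and SAM4 (-1.46) were both lower. At 48 h the partners differed in sign in both pairs, with MMP1 higher (2.46) and MHT1 lower (-1.25), and SAM3 higher (1.35) and SAM4 lower (-1.72).

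Around the pathway, 59 further genes were listed in 8 groups, of which 55 could be tested. At 96 h 3 were higher and 8 lower in ITD00185, 20% of them, against 22.5% of all genes. At 48 h 5 were higher and 11 lower, 29.1% of them, against 39.5% of all genes. Without the divergent array 14 were higher and 10 lower at 48 h, beside 19.7% and 32.0% of all genes. The counts per list below stand against the same background. Of the related genes named, only SAH1, ADO1 and FZF1 are also given without the divergent array at 48 h. Both genes of S-adenosylhomocysteine turnover were lower in ITD00185 at both times. SAH1, the hydrolase that splits the product of methylation reactions, had ratios of -0.07, 0.24 and -0.18 in ITD00185 at 96 h, against 2.41, 1.62 and 2.21 in T73, and 1.17, 0.87 and 1.51 in ITD00185 at 48 h, against 3.09, 3.09 and 3.93 in T73. It did not overlap at either time and differed by -2.08 ± 0.32 at 96 h (adjusted p = 0.00188) and -2.18 ± 0.32 at 48 h (adjusted p = 0.000722), or -2.03 at 48 h without the divergent array. ADO1, the adenosine kinase that clears the other product, differed by -2.61 ± 0.44 at 96 h (adjusted p = 0.00294) and -1.37 ± 0.44 at 48 h (adjusted p = 0.0284). With the divergent array left out, its 48 h difference was -0.84 and missed the threshold (adjusted p = 0.0548).

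In methylthioadenosine salvage and polyamine synthesis, 1 of 13 genes was higher and 2 lower at each time. BAT1, a branched-chain aminotransferase, was higher by 2.80 at 96 h (adjusted p = 0.00197) and 5.11 at 48 h (adjusted p = 3.7e-05), and the lower ones were ARO8 (-2.25) and UTR4 (-1.76) at 96 h and ADI1 (-2.27) and SPE2 (-0.98) at 48 h. Among the ubiquitin ligase partners of Met30, the shared subunit SKP1 was higher at 96 h (1.76), and the cullin CDC53 (-3.18) and the ubiquitin-conjugating enzyme CDC34 (-2.24) were lower at 48 h. CDC53 lacked a value on T73 48 h replicate 2, and its other T73 ratios at 48 h were 5.575 and 2.586. Of 12 genes of one-carbon folate supply, ADE3 was lower at 96 h (-1.20), and MTD1 (-2.85) and MIS1 (-1.93) were lower at 48 h.

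In glutathione metabolism, DUG2 was higher at 96 h (0.84), while at 48 h the glutathione transporter OPT1 (2.20) and the reductase GLR1 (0.68) were higher and DUG3 (-0.76) was lower. Among other uptake or use of sulfur compounds, SOA1 (-1.07), the cysteine transporter YCT1 (-1.22) and AGP1 (-1.24) were lower at 96 h, and at 48 h the amino acid permease BAP2 (3.88) and the sulfonate dioxygenase JLP1 (1.85) were higher and FZF1 (-1.06), the activator of SSU1, was lower. FZF1 missed the threshold without the divergent array (-0.77, adjusted p = 0.0548). THR4, threonine synthase, which draws on the same homoserine as MET2, was lower at 48 h (-1.71), and 0 of 4 genes of serine supply passed at either time.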

How the data were processed

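The authors deposited 1 log2 ratio per probe and array. How they scanned, corrected, filtered and normalized the arrays, and the scale, centring and direction of the ratios, are not given in the sources used here. Base 2 was read from the size of the values, and strain over mix from the channels and dyes in the labels. No array had the dyes exchanged. Of 6246 probes, 5753 matched the S288C gene table by systematic name and 34 by synonym. Probes of a gene were averaged, and genes with values on at least 2 arrays of each group were tested. The 4 group means were estimated over all 12 arrays with limma 3.58.1 in R 4.3.3 (two-sided moderated tests, 8 residual degrees of freedom and 3.16 from the prior), with Benjamini-Hochberg adjustment over all 5474 genes within each comparison and a threshold of 0.05. The fit was run on simulated data in which a gene had the same spread in all groups and no array stood apart. That run therefore does not bear on the unequal spreads or the divergent array of these data. The replicates are biological per the labels, and their number limits the precision. Alternatives were centring, scaling, quantile normalization, array weights, filters, the replicate number as a block, the 6 arrays compared alone, and each array left out. The change was not fitted on 6 arrays alone, since it needs all 4 groups. Every member called in a strain comparison or in the change is named, and up to 4 genes per related list and time. The members and lists were chosen with earlier results of these data known. Whether same-numbered replicates are paired was not settled, as set out in the closing section. Promoter motifs and protein identities were not analysed here.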

Additional observations from a re-analysis of the deposited data

Results flagged for a closer look

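For 16 of the 38 genes the effect of strain differed between the times by the test of the change itself (limma, adjusted p under 0.05, difference between ITD00185 and T73 at 96 h minus that at 48 h), against 38% of all genes. The change was negative in sulfate uptake and reduction for SUL1 (-1.91), SUL2 (-2.17), MET3 (-2.40), MET5 (-2.86) and MET1 (-1.32), and positive for MET16 (2.02). In homocysteine and methionine synthesis it was negative for MET17 (-3.78), MET6 (-1.93) and MET13 (-1.93). It was also negative for the synthetase gene SAM2 (-1.31) and the permease genes MUP1 (-1.92), MUP3 (-1.87) and SAM3 (-2.67). Among regulators it was positive for MET4 (4.59) and MET28 (1.46) and negative for CBF1 (-1.79). SUL1, MET3, MET5, MET17, MET13, MUP1 and SAM3 kept this call under every alternative that was run.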

How the results depend on the processing

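Counts of members past the threshold moved by over 1.5 times as follows. At 96 h, 14 became 29 with array weights and 22 with the 6 arrays of that time alone, and ran from 8 to 20 with each array left out. At 48 h, 16 became 4 with the 6 arrays alone, and ran from 9 to 19. For the change of the strain difference 16 ran from 10 to 22. Within ITD00185 over time, 6 became 2 with scaled arrays, 2 with quantile normalization, 25 with array weights and 1 with its 6 arrays alone, and ran from 1 to 21, the highest without ITD00185 48 h replicate 2. Within T73, 7 became 14 with centred arrays and 16 with array weights, and ran from 2 to 11. MET16 reversed with scaled arrays (0.27 at 48 h and -0.51 for the change) and with quantile normalization (0.29 and -0.57), and the cause was not tested. No other call reversed under an alternative run. Several members not called at 48 h had a difference there that changed sign with scaled arrays and with quantile normalization. For MET3 it was -0.36 as deposited, 1.08 with scaled arrays and 1.18 with quantile normalization. In that order it was -0.09, 1.04 and 1.18 for MET14, and -0.02, 1.37 and 1.42 for CYS3. For MET32 it was -0.86, 0.24 and 0.34, for HOM3 -0.11, 0.53 and 0.60, and for MET10 -0.88, 0.02 and 0.08. Calls kept under all alternatives run numbered 8 of 14 at 96 h, 4 of 16 at 48 h, 7 of 16 for the change, 1 of 6 within ITD00185 and 1 of 7 within T73. Over all genes, 1229 calls at 96 h became 3542 with array weights and 2466 with the 6 arrays alone. At 48 h, 2164 became 1231 with scaled arrays, 1270 with quantile normalization and 794 with the 6 arrays alone. For the change, 2080 became 1305 with scaled arrays, 1343 with quantile normalization and 3587 with array weights. With each array left out they ran from 537 to 1799, from 1414 to 2832 and from 1264 to 2903 in these comparisons. Within ITD00185, 357 became 233 with scaled arrays, 3306 with weights and 44 with its 6 arrays alone, and ran from 21 to 2104 with each array left out. Within T73, 1772 became 818 with scaled arrays and 881 with quantile normalization, and ran from 925 to 2273. Quantile normalization split the 48 h calls of members into 15 higher and 1 lower, beside 11.8% of all genes higher and 11.4% lower. Whether replicate numbers pair the samples was not settled. Of 12 same-numbered pairs 4 correlated above 0.1 in their deviations from the group means (range -0.19 to 0.34). Each array was also checked in each comparison it enters, and in 13 of these 24 checks it correlated best with its own number. With the replicate number as a block 14 members passed at 96 h, 16 at 48 h, 16 for the change, 7 within ITD00185 and 7 within T73. Over all genes 26.4%, 43.2%, 41%, 12.5% and 34.9% passed in that order, against 22.5%, 39.5%, 38%, 6.52% and 32.4% without the block. Within ITD00185 that was 683 genes, and the change of MET1 missed the threshold (adjusted p = 0.0521). Signal over background was not used here, so no detection limit can be given.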
